A study of Homo sapiens with 6 samples.

Results

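The RBMX family consists here of 4 genes, RBMX, RBMXL1, RBMXL2 and RBMXL3, which were taken by name from the 62700 genes and the 251955 transcripts measured. All 4 genes were listed in the gene table. GENCODE 29 (GRCh38) assigned 17 transcripts to them, 12 of RBMX, 3 of RBMXL1 and 1 each of RBMXL2 and RBMXL3, and all 17 were listed in the transcript table. Of these, 13 reached 1 TPM, the unit of the transcript table, in 2 or more libraries, and the other 4 (RBMX-204, RBMX-210, RBMX-211 and RBMXL1-203) were listed at 0 in every library.

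The cells were TCam-2, a line from a human testicular seminoma, and polyadenylated RNA was sequenced in 3 groups of 2 libraries each. The WT group was not transduced, the GFP group was transduced with GFP_FLAG, a tagged green fluorescent protein, and the RBMXL3 group was transduced with RBMXL3_FLAG, a tagged RBMXL3. Every group was the same cell line in the same medium, and the WT and GFP groups served as controls for overexpression of RBMXL3. The labels used here give neither the promoter of the transgenes nor whether the transduced cells were a pool or 1 clone, and they do not say that replicates were separate cultures, so p-values measure the spread between these libraries.

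The read counts behind the gene values totalled between 17685680 reads (RBMXL3 replicate 1) and 29318007 reads (WT replicate 1), with both RBMXL3 libraries below all 4 controls. All 7 seminoma and primordial germ cell markers checked (POU5F1, NANOG, SOX17, TFAP2C, PRDM1, KIT and PDPN) were present in every library, at normalised read counts between 1411 and 41233. SOX2, a marker of embryonal carcinoma, lay between 11.7 and 34.2, PTPRC of leukocytes between 0 and 1.06, and DCN of fibroblasts between 0 and 1.69. COL1A1, the other fibroblast marker checked, was present in every library, between 206 and 407. The later germ cell markers DAZL and DDX4 lay at 0 and between 0 and 10.6.

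RBMX, also called hnRNP G, is an X-linked RNA-binding protein with an RNA recognition motif at its amino-terminal end and a long disordered tail. It takes part in splice site choice, in protection of the genome during replication and in cohesion of sister chromatids. Retrotransposed copies of its messenger RNA became genes of their own. RBMXL1 is found in many tissues, RBMXL2 is known as a splicing regulator of male germ cells, needed in meiosis, and RBMXL3 is an X-linked copy about which little is known.

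The first 90 coding bases, which open the part of the gene that encodes the RNA recognition motif, are shown because they display how near the 4 genes are to each other, and how far reads can tell them apart. They were read from the GENCODE 29 transcripts (GRCh38), 5′ to 3′, and capitals mark bases that differ from RBMX at the same position. They lie in coding exons at chrX:136879338-136879427 (minus strand, RBMX), chr1:88983737-88983826 (minus strand, RBMXL1), chr11:7089121-7089210 (plus strand, RBMXL2) and chrX:115189442-115189531 (plus strand, RBMXL3).
RBMX: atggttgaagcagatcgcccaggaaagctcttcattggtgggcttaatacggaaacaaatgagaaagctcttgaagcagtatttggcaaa
RBMXL1: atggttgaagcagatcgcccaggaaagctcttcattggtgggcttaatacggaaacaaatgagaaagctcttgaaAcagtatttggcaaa
RBMXL2: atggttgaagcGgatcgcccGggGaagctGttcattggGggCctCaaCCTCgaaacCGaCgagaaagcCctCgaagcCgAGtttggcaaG
RBMXL3: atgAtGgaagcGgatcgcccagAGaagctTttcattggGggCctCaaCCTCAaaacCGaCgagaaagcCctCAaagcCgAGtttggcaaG
RBMXL1 differed from RBMX at 1 of these 90 bases, RBMXL2 at 20 and RBMXL3 at 24. Over the aligned coding sequence, RBMXL1 was 97.3% identical to RBMX (1138 of 1170 aligned bases), RBMXL2 68.7% and RBMXL3 61.4%. RBMXL2 and RBMXL3 were nearer to each other, at 78.6%, than either was to RBMX. RBMXL3 has the longest coding sequence of the 4, at 3201 bases, against 1173 in RBMX, 1170 in RBMXL1 and 1176 in RBMXL2.

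The share of a transcript found letter for letter in another gene was counted in windows of 31 bases over the GENCODE 29 transcripts. In RBMXL3-201, the transcript of the overexpressed gene, 98.6% of windows were found in no other transcript, and in RBMXL2-201 97.7% were. In RBMX-201, the main RBMX transcript, 36.8% of windows were also in another family member, and 37.2% were in a gene outside the family, most often the pseudogene RBMXP2. In RBMXL1-201 23.6% of windows were also in another family member. Counts of RBMXL2 and RBMXL3 are therefore nearly free of shared sequence, whereas reads of RBMX and RBMXL1 can be exchanged between them, so the counts of both are uncertain. The pseudogenes themselves took few reads: RBMXP2 had between 2 and 8 reads in a library, RBMXP5 between 0 and 4, RBMXP4 at most 1, and RBMXP1 and RBMXP3 had 0.

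RBMX was by far the most abundant member. Its summed TPM, a level scaled to transcript length and to the library's total, was 377 and 356 in the WT libraries, 362 and 347 in GFP and 420 and 412 in RBMXL3, and it made up between 90.04% and 91.52% of the family's TPM in every library. RBMXL2 followed, at 33.4 and 30.7 TPM in the WT libraries, 29.5 and 33.9 in the GFP libraries and 39.1 and 39.6 in the RBMXL3 libraries. RBMXL1 was listed at 4.92 and 2.32 TPM in the WT libraries, 6.89 and 4.53 in the GFP libraries and 2.54 and 4.397 in the RBMXL3 libraries. RBMXL3 was listed at 0 in all 4 control libraries and at 1.80 and 1.31 TPM in its own group. The order of the levels was thus RBMX, RBMXL2, RBMXL1 and, in the cells carrying it, RBMXL3. In those cells the RBMXL3 transcript reached 0.428% and 0.319% of the RBMX level and 4.60% and 3.31% of the RBMXL2 level.

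For RBMX, RBMXL2 and RBMXL3, TPM and gene reads gave a similar relation. Their TPM per normalised read per kb of the first transcript lay between 0.0573 and 0.0722 in every library with reads. Within RBMX it was higher in the RBMXL3 libraries, at 0.0679 and 0.0716, than in the controls, at 0.0579 to 0.0633. RBMX was thus higher relative to the controls in TPM than in reads. For RBMXL1 the same quantity lay between 0.00998 and 0.0336, so its listed TPM was low for its reads. Only 80.0% of all listed transcripts, carrying between 94.7% and 95.1% of a library's TPM, are in GENCODE 29, and transcripts of RBMXL1 from a later annotation would be missing from its sum. The RBMXL1 shares and summed TPM are given with that limit. In normalised reads per kb of the first transcript RBMXL1 also lay below RBMXL2, between 161 and 250 against between 408 and 591 over the 6 libraries.

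**Figure D1:**
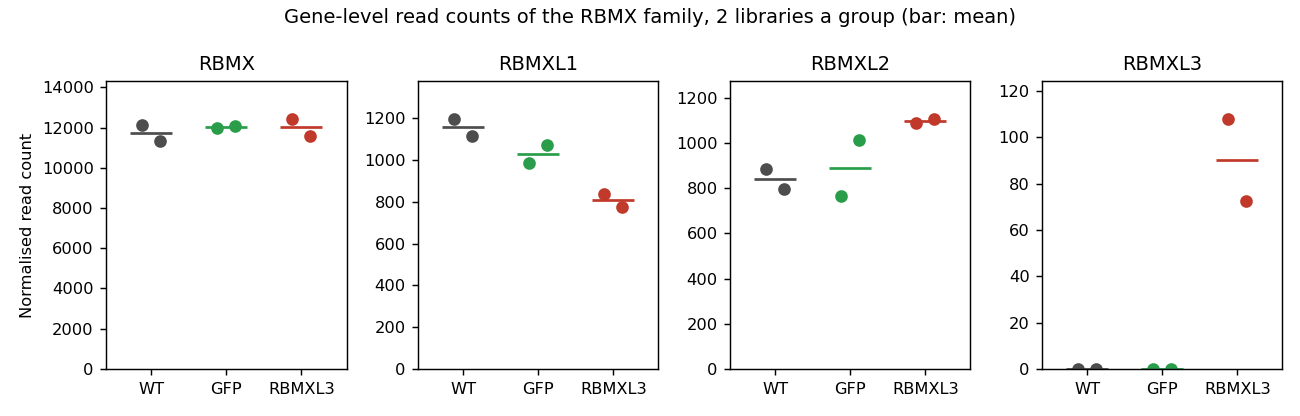
Normalised read count of each family gene (vertical axes, each starting at 0) in the 2 libraries of each group (points), with the group mean (bars). RBMX overlaps between all groups, both RBMXL1 points of the RBMXL3 group (839 and 773) lie below all controls, both RBMXL2 points (1087 and 1108) lie above them, and RBMXL3 is 0 in every control.

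At the gene level the members did not move together. The comparison with GFP shares transduction and tag with the RBMXL3 cells, the comparison with WT does not, and both use the same RBMXL3 libraries. RBMXL3, the transduced gene, had 0 reads in every control and passed the minimum through its own libraries alone, so its call was fixed by the design and is left out of these counts. In the limma fit over 14292 genes, 1 of the other 3 members was called against GFP, RBMXL1, lower, where 20.9% of all genes were called (10.5% higher and 10.4% lower). Against WT 2 of the 3 were called, RBMXL2 higher and RBMXL1 lower, where 29.9% of all genes were called (14.6% higher and 15.3% lower). Between GFP and WT 0 of the 3 were called, where 3.67% of all genes were. An unadjusted limma p under 0.05 was found for 0 of the 3 and for 3190 of the 14292 genes. edgeR and DESeq2 on the recovered reads also called 0 of the 3 between GFP and WT, where they called 422 of 16642 and 648 of 30989 genes. At such shares 0 of 3 says little about the members. These counts rest on 3 genes, and calls were common among all genes in both comparisons of the RBMXL3 cells.

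RBMX had normalised read counts of 12144 and 11333 in the WT libraries, 11965 and 12073 in the GFP libraries, and 12450 and 11572 in the RBMXL3 libraries. The groups overlapped. Its log2 change was 0.03 against WT (SE 0.10, limma adjusted p 0.83) and -0.0018 against GFP (SE 0.10, adjusted p 0.991). In summed TPM RBMX was 0.23 higher than in GFP on the log2 scale, where the median gene was 0.13 higher, and was not called (adjusted p 0.139). The reads of RBMX in the cells that overexpressed its relative therefore differed from those in the controls by less than the replicate spread.

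RBMXL1 (chromosome 1, 88979456 to 88992960, minus strand) had 1198 and 1116 normalised reads in the WT libraries, 985 and 1073 in the GFP libraries and 839 and 773 in the RBMXL3 libraries. The 3 groups did not overlap, and the lowest values were those of RBMXL3. The log2 change was -0.51 against WT (SE 0.11, limma adjusted p 0.0039) and -0.34 against GFP (SE 0.11, adjusted p 0.0366), with both RBMXL3 libraries below every control. RBMXL1 reads were 9.87% and 9.85% of RBMX reads in the WT libraries, 8.23% and 8.89% in the GFP libraries, and 6.74% and 6.68% in the RBMXL3 libraries, with no overlap between the groups.

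The call against GFP was not firm: it was lost without a filter on low values (adjusted p 0.0898), with DESeq2 (0.0538), in summed TPM (0.297), with the replicate number as a block (0.0638), and in 5 of the 6 fits that each left out 1 library (up to 0.335), all but that without GFP replicate 1. The call against WT held in 7 of the 8 other settings, failing in summed TPM (log2 change -0.019, adjusted p 0.977), and was lost without WT replicate 1 (0.0552) and without RBMXL3 replicate 2 (0.0842).

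RBMXL1 lies within KYAT3, a kynurenine aminotransferase gene on the same strand, and 9.22% of the RBMXL1 exon bases are also KYAT3 exon. KYAT3 was at 668 and 681 normalised reads in the WT libraries, 545 and 867 in the GFP libraries and 582 and 638 in the RBMXL3 libraries, and its log2 changes of -0.14 and -0.17 against WT and GFP were not called (limma adjusted p 0.552 and 0.508). The part of these shared bases in the RBMXL1 counts was not tested.

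RBMXL2 (chromosome 11, 7089027 to 7090900, plus strand, a single exon) had 885 and 797 normalised reads in the WT libraries, 765 and 1015 in the GFP libraries and 1087 and 1108 in the RBMXL3 libraries. Both RBMXL3 libraries lay above all controls, GFP replicate 2 came nearest, and the GFP and WT groups overlapped. The log2 change was 0.38 against WT (SE 0.13, limma adjusted p 0.0444) and 0.31 against GFP (SE 0.13, adjusted p 0.11). The call against WT was lost in 4 of 8 other settings and in 4 of 6 fits without 1 library, among them DESeq2 (adjusted p 0.0593) and summed TPM (0.121). The change against GFP ranged from 0.11 without GFP replicate 1 to 0.51 without GFP replicate 2, and only the latter was called (adjusted p 0.00331).

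RBMXL3 (chromosome X, 115189427 to 115192868, plus strand) had 84 and 68 recovered reads, or 108 and 72.7 normalised reads, in its own libraries and 0 in the 4 controls. A count of 0 allows up to 3 reads a library, between 2.52 and 3.18 normalised reads in the controls, so the group mean of 90.4 was at least 35.8-fold higher than in WT and at least 30.4-fold higher than in GFP. The gene lies inside LRCH2 on the opposite strand, but 0 of its exon bases are LRCH2 exon. LRCH2, a scaffold gene with leucine-rich repeats, was at 248 and 242 normalised reads in the WT libraries, 156 and 179 in the GFP libraries and 270 and 240 in the RBMXL3 libraries. Its GFP libraries were the lowest: its log2 change was 0.54 against GFP (limma adjusted p 0.0153), 0.05 against WT (0.804) and -0.49 between GFP and WT (0.0652).

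RBMX itself has several ends, and the isoforms fall into classes by the exons at their ends. RBMX-201 (chromosome X, 136873461 to 136880725, minus strand) has 9 exons and encodes the full protein in 1173 coding bases, of which 308 lie in its last exon. RBMX-202 (136872275 to 136879431) has the same inner coding exons, but skips that last exon for a short one further downstream, annotated over 71 bases, where 5 coding bases are followed by a stop codon. Its model also lacks the first exon of RBMX-201 and spans 940 bases against 2012, and its TPM is scaled to this shorter length. RBMX-203 joins the same short exon, goes on to another exon downstream and lacks a pair of inner coding exons. The noncoding RBMX-205 and RBMX-206 begin past the stop codon of RBMX-201 and also contain the short exon. RBMX-207 retains the intron before the main last exon and stops there in frame, RBMX-209 skips the exons that hold the usual start codon, and RBMX-208 and RBMX-212 are annotated as targets of nonsense-mediated decay, the pathway that removes messenger RNAs with early stop codons.

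**Figure D2:**
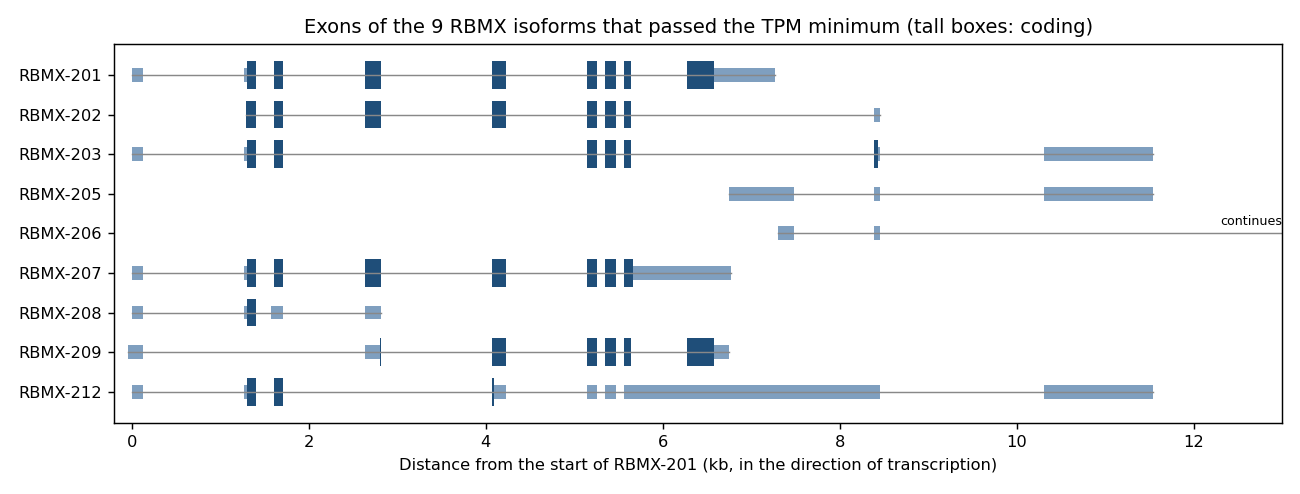
Exons (boxes, tall where coding) and introns (lines) of the 9 RBMX isoforms that passed the minimum of 1 TPM in 2 libraries, against the distance in kb from the start of RBMX-201. RBMX-202 and RBMX-203 skip the main last exon and join the short exon that lies further downstream, while RBMX-206 runs past the right edge.

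The junctions that set RBMX-201 and RBMX-202 apart are shown because the largest isoform change against WT concerns them. Both leave the same exon, chrX:136875086-136875168 (minus strand, GRCh38, coding), and the capitals mark the first 24 bases of the exon each joins, chrX:136873461-136874452 for RBMX-201 and chrX:136872275-136872345 for RBMX-202.
RBMX-201: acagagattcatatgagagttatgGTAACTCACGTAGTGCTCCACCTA
RBMX-202: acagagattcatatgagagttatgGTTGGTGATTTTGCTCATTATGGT
In RBMX-202 the 5 coding bases of the short exon are followed directly by the stop codon TGA. RBMX-203 uses the same junction. Of the 910 windows of 31 bases in RBMX-202, 69 are absent from RBMX-201, all 69 are in RBMX-203, and 0 are unique to RBMX-202. Its TPM is therefore an estimate that Salmon made from shared sequence, and junction reads were not analysed here.

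RBMX-202 was listed at 0 TPM in both WT libraries, at 6.30 and 3.47 TPM in the GFP libraries and at 16.5 and 17.7 TPM in the RBMXL3 libraries. No group overlapped another, and the order was WT, GFP, RBMXL3. As a share of the RBMX TPM this was 0% in the WT libraries, 1.37% ± 0.523 in the GFP libraries and 4.12% ± 0.262 in the RBMXL3 libraries (SD, n = 2). On the log2(TPM + 1) scale the change was 4.18 against WT (SE 0.29, limma adjusted p 0.0124), which is no fold since WT is listed at 0, and 1.67 against GFP (SE 0.29, adjusted p 0.0803). Between GFP and WT the difference was 2.51 (SE 0.29, adjusted p 0.251).

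This was the single isoform of the 13 tested that was called against WT, where 1.53% of 44693 transcripts were called. Against GFP limma called 0 of the 13 isoforms, where 1.25% of transcripts were called, and 5 of the 13 had an unadjusted p under 0.05, as had 8535 of the 44693 transcripts. These 5 included RBMXL3-201, which passed the minimum through its own libraries alone, so that its p was fixed by the design. Between GFP and WT limma called 0 of the 13 and 0% of all transcripts, with an unadjusted p under 0.05 in 2 of the 13 and in 3562 of all. The call of RBMX-202 against WT was lost with the replicate number as a block (adjusted p 0.0622) and in 4 of the 6 fits that left out 1 library, those without either WT or either RBMXL3 library (0.109 to 0.159), while the change itself stayed between 4.13 and 4.23. With a pseudocount of 0.1 in place of 1 it was 7.43 against WT (adjusted p 0.00862) and 5.58 between GFP and WT (adjusted p 0.14), so its size depends on the pseudocount wherever WT is listed at 0.

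Relative to the other RBMX isoforms, RBMX-202 rose against WT by 4.15 on the log2 scale (SE 0.55, limma diffSplice adjusted p 7.38e-06) and was also higher in GFP than in WT, by 2.73 (SE 0.55, adjusted p 0.0113). Against GFP the difference was 1.42 (adjusted p 0.162). This test gives all RBMX isoforms the same SE and can give false calls where isoforms of a gene differ in spread. Those of RBMX did differ, with an SE in level of 0.07 for RBMX-201 and 0.92 for RBMX-209. Of the 11 isoforms in this test, 0 were called against GFP, where 4.45% of all transcripts were. An unadjusted p under 0.05 was found there for 5 of the 11 and for 5585 of all 36184. These 5 included both tested isoforms of RBMXL1, whose changes mirror each other and count as a single result. RBMX-202 was the 1 isoform called against WT and the 1 called between GFP and WT, where 4.16% and 0.445% of all transcripts were called. The call against WT held in all 6 fits that left out 1 library, whereas that between GFP and WT was lost in 4 of them (all but those without WT replicate 2 or GFP replicate 2, adjusted p up to 0.119) and with a minimum mean of 5 TPM (0.139). A test of the shares themselves, which called 0.254% of transcripts against GFP, 0.31% against WT and 0% between GFP and WT, called neither, with an adjusted p of 0.0714 for the rise of 4.12 percentage points against WT and 0.832 for that of 1.37 between GFP and WT.

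**Figure D3:**
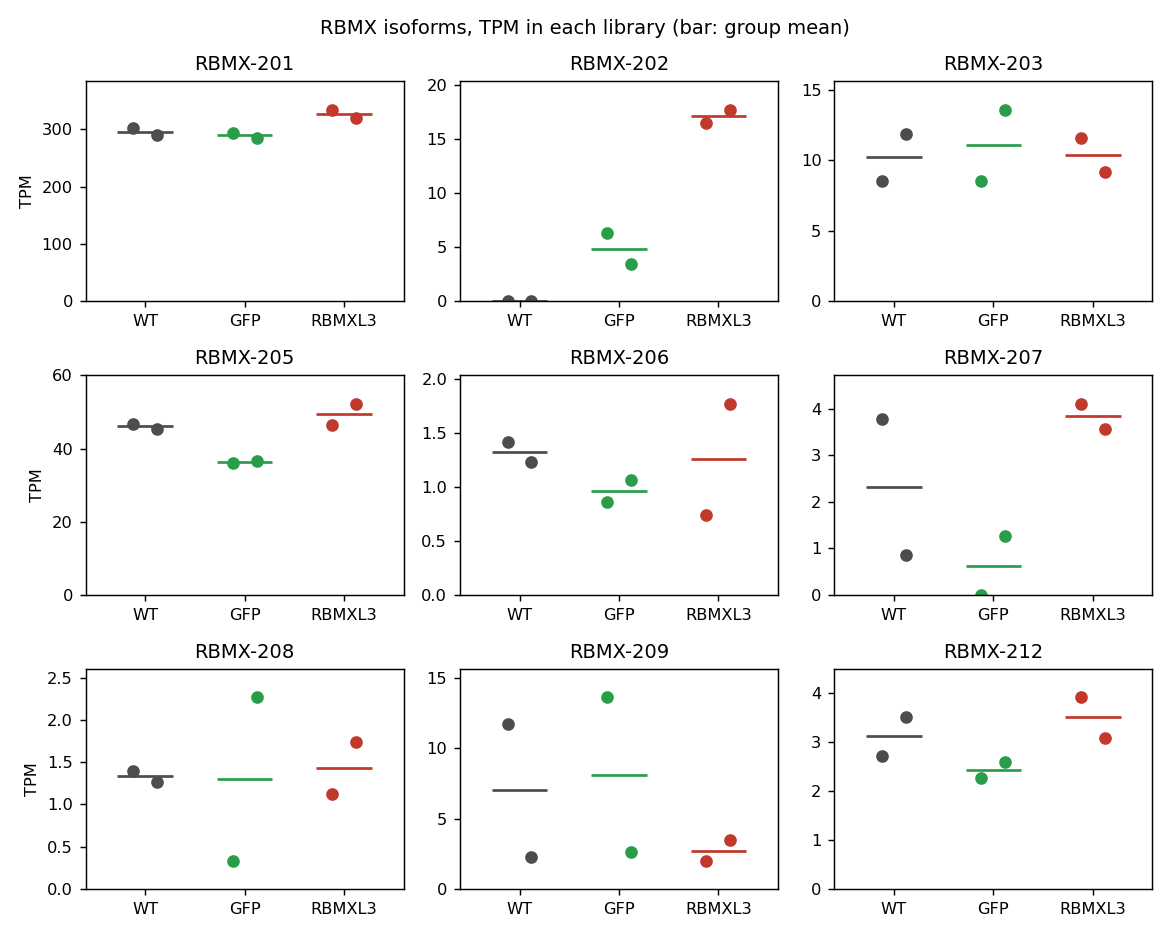
TPM of each of the 9 RBMX isoforms (vertical axes, each starting at 0) in the 2 libraries of each group (points), with the group mean (bars). RBMX-202 goes from 0 in WT to 16.5 and 17.7 in RBMXL3 without overlap, whereas RBMX-203, RBMX-208 and RBMX-209 spread as widely within groups as between them.

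RBMX-203, which ends on the same junction, was at 8.57 and 11.9 TPM in the WT libraries, 8.55 and 13.6 in the GFP libraries and 11.6 and 9.20 in the RBMXL3 libraries. The groups overlapped fully. The sum of RBMX-202 and RBMX-203 needs no division between them, and it made up 2.67% and 3.91% of the TPM of isoforms joining either the short or the main last exon in the WT libraries, 4.60% and 5.62% in the GFP libraries and 7.73% and 7.71% in the RBMXL3 libraries. The groups did not overlap in this sum either. The order was that of RBMX-202, at means of 3.29% ± 0.877, 5.11% ± 0.719 and 7.72% ± 0.0134 (SD, n = 2). This sum is no feature of the fitted tables and was not tested in a model, and the smallest two-sided p of an exact permutation test of 2 libraries against 2 is 0.333. The sum still rests on Salmon's division of reads from other isoforms, as RBMX-205 and RBMX-206 also contain the short exon.

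**Figure D4:**
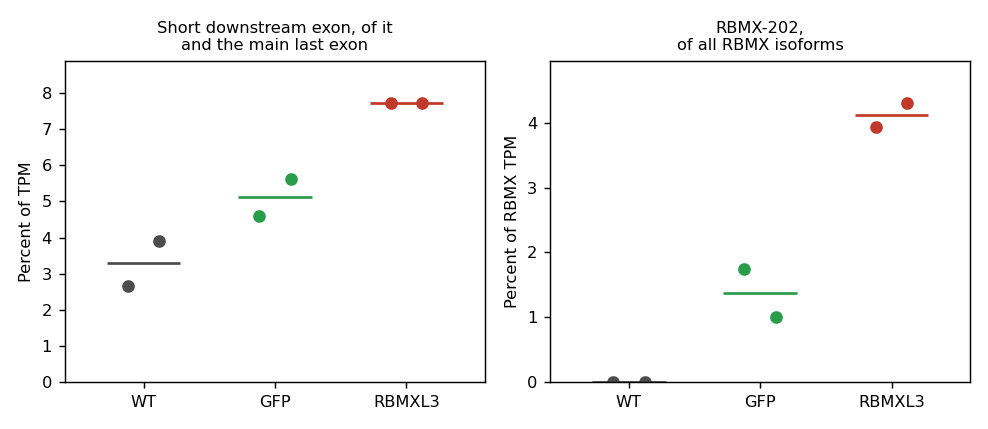
Left, the percent of TPM on RBMX-202 and RBMX-203 among all isoforms that join the shared exon to the short or the main last exon, and right, the percent of all RBMX TPM on RBMX-202, in the 2 libraries of each group (points) with the group mean (bars). Both rise in the order WT, GFP, RBMXL3 without overlap, from a mean of 3.29% to 7.72% on the left and from 0% to 4.12% on the right.

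The main isoform, RBMX-201, was at 301 and 290 TPM in the WT libraries, 294 and 284 in the GFP libraries and 334 and 319 in the RBMXL3 libraries. Both RBMXL3 libraries lay above all controls, by a log2 change of 0.17 against GFP and 0.14 against WT (limma adjusted p 0.286 and 0.379), while the median transcript moved by 0.13 and 0.03. Its share of the RBMX TPM was 80.6% ± 1.09 in the WT libraries, 81.5% ± 0.395 in the GFP libraries and 78.4% ± 1.40 in the RBMXL3 libraries (SD, n = 2). The change in share against GFP was -3.04 percentage points (limma adjusted p 0.607).

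RBMX-205, a noncoding model at the downstream end of the gene, was the second isoform in level. It was at 46.7 and 45.4 TPM in the WT libraries, 36.2 and 36.5 in the GFP libraries and 46.5 and 52.3 in the RBMXL3 libraries, so that the GFP libraries were the lowest and WT and RBMXL3 overlapped. Its log2 change was 0.43 against GFP (SE 0.10, limma adjusted p 0.129) and 0.10 against WT (adjusted p 0.659), and -0.33 between GFP and WT (adjusted p 0.551). The median transcript moved by 0.13, 0.03 and -0.098 in the same order.

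The remaining RBMX isoforms were minor. RBMX-209 varied most between replicates, at 11.7 and 2.29 TPM in the WT libraries, 13.6 and 2.64 in the GFP libraries and 1.96 and 3.47 in the RBMXL3 libraries, and RBMX-207 was at 3.78 and 0.865 in the WT libraries, 0 and 1.26 in the GFP libraries and 4.11 and 3.55 in the RBMXL3 libraries. Neither was called at its level in any comparison, though RBMX-207 changed by 1.68 against GFP on the log2(TPM + 1) scale (SE 0.61, limma adjusted p 0.239). The relative use of RBMX-209 was not called with all libraries, but was against GFP without GFP replicate 2 (limma diffSplice log2 change -2.75, adjusted p 0.00389), and against WT without WT replicate 2 (-2.40, adjusted p 0.0425) and with a minimum mean of 5 TPM (-1.94, adjusted p 0.0464). That of RBMX-207 was called against GFP without GFP replicate 2 (2.06, adjusted p 0.0292) and with a pseudocount of 0.1 (3.09, adjusted p 0.041). RBMX-206, RBMX-208 and RBMX-212 stayed between 0.33 and 3.90 TPM in every library.

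Of the RBMXL1 isoforms, RBMXL1-201 was at 4.38 and 1.24 TPM in the WT libraries, 5.37 and 3.88 in the GFP libraries and 0.963 and 2.14 in the RBMXL3 libraries. RBMXL1-202, which has 1 more noncoding exon and the same coding sequence, was at 0.534 and 1.08, 1.52 and 0.646, and 1.58 and 2.25 TPM in the same order. RBMXL1-201 therefore made up 71.3% ± 25.3 of the listed TPM in the WT libraries, 81.8% ± 5.54 in the GFP libraries and 43.3% ± 7.68 in the RBMXL3 libraries (SD, n = 2). Neither isoform was called, in level or in relative use, and the change in share against GFP, -38.5 percentage points, had a limma adjusted p of 0.321. The isoforms are told apart by few bases: 33 of 4769 windows were unique to RBMXL1-201 and 7 of 5054 to RBMXL1-202.

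RBMXL2 and RBMXL3 have 1 transcript each, so their isoform values are their summed TPM, which differ from their normalised reads. RBMXL2-201 was 0.31 higher on the log2(TPM + 1) scale than in GFP and 0.29 higher than in WT (SE 0.11, limma adjusted p 0.247 and 0.276), with both RBMXL3 libraries above all controls. The median transcript was 0.13 and 0.03 higher in the same order. RBMXL3-201 passed the minimum through its own libraries alone, so its outcome was fixed by the design, and its change is drawn without being read as a test.

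Genes that work with RBMX were described by list. Of 9 known protein partners 8 were tested (KHDRBS2 fell under the minimum). These bind RNA and regulate splicing, among them TRA2A and TRA2B, KHDRBS1 (Sam68) and SAFB. Against GFP 0 of the 8 were called by limma, where 20.9% of all genes were, with a median log2 change of 0.03 where that of all genes was 0.00087, and against WT KHDRBS3 alone was called, lower, where 29.9% of all genes were called, with a median of -0.07 where that of all genes was -0.01. KHDRBS3, a relative of Sam68, went from 725 and 582 normalised reads in the WT libraries and 632 and 599 in the GFP libraries to 503 and 487 in the RBMXL3 libraries, a log2 change of -0.38 against WT (SE 0.12, limma adjusted p 0.0366).

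The 4 genes of the m6A system tested encode the methyltransferase METTL3, its partners METTL14 and WTAP, and the nuclear reader YTHDC1, a system whose marks open RNA to RBMX. Of these, 1 was called lower against GFP and 2 against WT, with medians of -0.23 and -0.32, where 10.4% and 15.3% of all genes were called lower. WTAP fell against both controls, from 4112 and 3998 normalised reads in the WT libraries and 3767 and 4198 in the GFP libraries to 3219 and 3036 in the RBMXL3 libraries (log2 changes -0.37 and -0.34, limma adjusted p 0.013 and 0.0254). YTHDC1 was at 5618 and 5372, 5497 and 4956, and 4282 and 4348 in the same order, and was called against WT (log2 change -0.35, adjusted p 0.0176) but not against GFP (-0.27, adjusted p 0.0612). Between GFP and WT limma called 0 genes of this list and 0 of the other 2 lists, where 3.67% of all genes were called. Lists this short can hold 0 calls at that share.

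The third list held 8 genes described as depending on RBMX or RBMXL1, of which 7 were tested. SMN2 fell under the minimum, and its reads cannot be told from those of the near-identical SMN1. Against GFP 1 was called higher and 0 lower, and against WT 1 higher and 2 lower, so that 1 and 3 of the 7 were called where 20.9% and 29.9% of all genes were. MAPT, which encodes the microtubule protein tau, rose from 27.1 and 23.5 normalised reads in the WT libraries and 24.9 and 26.5 in the GFP libraries to 45.1 and 48.1 in the RBMXL3 libraries (log2 changes 0.52 and 0.51, limma adjusted p 0.0336 and 0.0482). TPM3, a tropomyosin, and SGO1, which protects cohesion at centromeres, fell against WT (log2 changes -0.40 and -0.44, adjusted p 0.016 and 0.0253) and not against GFP (-0.26 and -0.06, adjusted p 0.117 and 0.789). CBX5 and the long-exon genes ETAA1 and REV3L were not called. The 8 calls of list genes kept their sign under quantile normalisation and edgeR, but the change of TPM3 against WT was -0.20 under quantile normalisation, and those of MAPT were 0.87 against GFP and 0.90 against WT with edgeR.

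The genes nearest to each member in pattern were found by the root mean square difference of centred log2 values over the 6 libraries. For RBMXL1 these were RIPK2, a kinase of innate immune signalling, IFT57 of ciliary transport, and PPP4R1, a subunit of protein phosphatase 4, with differences of 0.0240 to 0.0284 among 9350 genes compared. RIPK2, the nearest, was at 671 and 621 normalised reads in the WT libraries, 564 and 582 in the GFP libraries and 473 and 426 in the RBMXL3 libraries. For RBMXL2 they were MOSPD2, NUDCD2 and TEF, at 0.0354 to 0.0444, and for RBMX they were NDE1, METTL16 and TMEM200B, at 0.0175 to 0.0288. For RBMXL3, compared with 14288 genes, the nearest were FOS, TMPRSS4 and ZNRF2, at 0.279 to 0.376. These last genes had reads in every control, at least 83.8 normalised reads, so that no gene among them shared the 0 of RBMXL3.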

How the data were processed

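Per the labels' protocols, libraries were made from DNase-treated RNA with a stranded mRNA kit. Per the submitters' processing notes, reads were trimmed with Trim Galore 0.6.10, the build was GRCh38 (hg38), and STAR 2.7.11a, DESeq2 and Salmon 1.10.2 were used. The read counter, its strand setting and the annotation are not given in the sources used here. The deposited gene table holds a normalised signal, read counts that the authors divided by 1 size factor per library, as its values show: 100% of 145320 nonzero values came out as whole reads (tolerance 0.001). The deposited transcript table holds TPM, which the authors made with Salmon and which keeps no depth. The planned gene test had assumed CPM, so gene values were divided by 1 common factor, 23.9, which leaves ratios between libraries unchanged.

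Genes and transcripts that reached a value of 1 in 2 or more libraries were tested on log2(value + 1), which understates changes of low genes, with limma 3.58.1 (R 4.3.3) in 1 fit of all 6 libraries, without covariates. Tests were two-sided, and items were called where the p adjusted by Benjamini-Hochberg over all items tested was under 0.05. Relative use was tested with limma's diffSplice over 36184 transcripts of 8882 genes. edgeR 4.0.16 and DESeq2 1.42.0 on the recovered reads, other filters, pseudocounts and scalings, a replicate block and the omission of each library were alternatives. TPM had a median change over all transcripts of 0.13 on the log2 scale against GFP, 0.03 against WT and -0.098 between GFP and WT. The scripts were tested on simulated data. Coordinates and sequences are those of GENCODE 29 (GRCh38). Genes named were the 4 members with their overlapping genes and pseudogenes, the called genes of the lists and the 3 genes nearest each member. The nearest genes needed a mean value of at least 10, except for RBMXL3, where no mean limit was set. Other list genes were named as examples. The members and lists were chosen with earlier results of these data known. Replicates of a group differed by more than sampling noise (chi-square per degree of freedom between 2.80 and 31.6). Floors cover counting error only, and the number of table columns of no sample was 0.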

Additional observations from a re-analysis of the deposited data

How the results depend on the processing

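The fitted log2 change of RBMXL3, whose call was fixed by 0 reads in the controls, was no bound on its fold: it was 2.24 as fitted, 1.35 in summed TPM, 5.25 with a pseudocount of 0.1, 8.95 and 9.19 with DESeq2 (against GFP and WT) and 9.53 with edgeR. With a pseudocount of 0.1 the change of RBMX-202 was 7.43 against WT and 5.58 between GFP and WT, and in relative use 7.38 and 6.05. Without a filter on low values, 950, 2327 and 0 genes were called (RBMXL3 against GFP, against WT, and GFP against WT), and 152 and 183 transcripts in the first 2 comparisons, and the changes of RBMXL1 against GFP (-0.34, adjusted p 0.0898) and RBMXL2 against WT (0.38, adjusted p 0.157) were not called by limma. With DESeq2 these were -0.35 (adjusted p 0.0538) and 0.38 (0.0593). In summed TPM 989, 1644 and 0 genes were called, and the changes were 0.23 for RBMX, -0.59 for RBMXL1 against GFP, -0.019 for RBMXL1 and 0.29 for RBMXL2 against WT, and -0.048, 0.58 and -0.017 for RBMX, RBMXL1 and RBMXL2 between GFP and WT. The change of RBMX against GFP, -0.0018 in the reported fit, was 0.16 with quantile normalisation and 0.014 with edgeR, without a call in either. Quantile normalisation left 327 genes called between GFP and WT. Relative use between GFP and WT gave 418 calls with a pseudocount of 0.1 and 22 with a minimum mean of 5 TPM, and the test of shares gave 92, 112 and 0 calls. With the replicate number as a block, RBMXL1 against GFP (-0.34, adjusted p 0.0638), RBMXL2 against WT (0.38, adjusted p 0.0599) and RBMX-202 against WT (4.18, adjusted p 0.0622) lost their calls, 191 genes were called between GFP and WT, and 69 transcripts in each comparison of RBMXL3. The deviations of same-numbered libraries correlated at -0.0941 (RBMXL3 and GFP), 0.0337 (RBMXL3 and WT) and -0.156 (GFP and WT) across 14292 genes. These values cannot show whether libraries of different groups shared a batch. A crossed replicate pairing of GFP and WT, added after seeing the data, gave 1049 genes between GFP and WT and 89 and 98 transcripts in the comparisons of RBMXL3 against GFP and WT. Over fits without 1 library, genes called ranged from 658 to 4313, 1428 to 6163 and 0 to 2780 in the same order, transcripts from 0 to 540, 0 to 535 and 0 to 0, and transcripts in relative use from 702 to 2397, 655 to 2034 and 109 to 456. The change of RBMX ranged from -0.054 to 0.051, -0.020 to 0.086 and -0.015 to 0.085, that of RBMXL1 from -0.40 to -0.28, -0.57 to -0.45 and -0.23 to -0.11, that of RBMXL2 from 0.11 to 0.51, 0.30 to 0.45 and -0.13 to 0.27, and that of RBMX-202 from 1.31 to 2.02, 4.13 to 4.23 and 2.16 to 2.87. Where such a fit left a group with 1 library, that library was assumed to vary like the other groups. Of 710 alternative values for isoforms and their relative use, 648 kept their direction and side of the threshold. Nearly all of these isoform results were uncalled in the reported fit, so this count is no measure of stability. Another 45 values changed sign, in 0 of them with a call in either fit. The cause of these differences was not tested. Depth limits RBMXL3 most, with 84 and 68 reads, and TPM carries no counting error.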
